A study of Arabidopsis thaliana with 8 samples.

Results

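Late-embryogenesis abundant (LEA), dehydrin, seed storage and other late-embryo transcripts were followed in Arabidopsis seedlings through polysomal and non-polysomal RNA. The list held 41 loci and was drawn up with earlier results of the same arrays known, in particular the difference of eif3h and WT signals. Oil-body proteins were kept on a list of their own, but AT2G47780, a relative of proteins found on lipid droplets, stayed in. The probe-to-gene annotation of the platform assigned 30 of these loci a probe set of a single gene, out of 13286 genes that were named in this way and 22746 probe sets without controls. The other 11 loci were not analysed here: the EM genes EM1 and GEA6, the LEA genes ECP63 and LEA7, the dehydrins XERO1 and RAB18, the seed maturation gene ATECP31, the cruciferin genes CRU2, CRU3 and CRA1, and the peroxiredoxin gene PER1.

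The samples were the aerial parts of seedlings of the eif3h mutant, which carries the T-DNA allele eif3h-1, and of the wild type (WT). The mutant makes an eIF3 subunit h that lacks its carboxyl terminus, and the authors report a low level of this protein. They state that its defects may come from both the lower level and the truncation. Both genotypes were grown for 10 days on agar with mineral salts and sucrose under continuous light, and the sources give no stress or hormone treatment for any group. Extracts were spun through sucrose gradients, and the pooled bottom fractions, where mRNAs carry several ribosomes, gave the polysomal RNA (PL), while the pooled top fractions, with ribosome-free mRNAs and monosomes, gave the non-polysomal RNA (NP). For each genotype 2 gradients were run on separate days, from material scraped off frozen plates, and the PL and NP RNA of a gradient each went onto 1 Affymetrix ATH1 array, which makes 8 arrays in 4 groups of 2. The mutant is a single allele, and nothing states which plants came from the same seed batch.

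LEA proteins are small, very hydrophilic proteins that accumulate as the embryo matures and acquires tolerance to drying, together with the storage proteins that later feed the seedling. Their mRNAs belong to the maturation programme driven by abscisic acid and a small set of seed transcription factors, are stored in the dry seed and normally decline after germination. Several family members, dehydrins above all, can also be induced in vegetative tissue by drought, cold or abscisic acid.

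Signals are MAS5 intensities on a linear scale, each array scaled by the authors to a common trimmed mean of 500. The array medians were 185.8 and 189.0 in eif3h PL against 194.4 and 211 in WT PL, and 257 and 277 in eif3h NP against 215 and 234 in WT NP, for replicates 1 and 2. Replicate 1 of every group was scanned on 1 day with 1 scanner and replicate 2 on another day with another scanner, so that values given per replicate are also values within a scan day. The mutated gene TIF3H1 had 213 and 192 in eif3h PL against 1277 and 1149 in WT PL, and 1897 and 1949.6 in eif3h NP against 2160.1 and 1733 in WT NP, so that the genotypes did not overlap in PL and did overlap in NP. No source used here places its probes before or behind the T-DNA. In seedling RNA of this kind, fewer cells that express a gene and less RNA per cell cannot be told apart.

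Most of the seed genes were high in 1 gradient alone, replicate 1 of eif3h, which stood apart for this group. There the median signal of the 30 genes was 2322 in PL and 1839 in NP, against 110 in PL and 102 in NP of eif3h replicate 2. In WT the medians were 63.7 and 17.5 in PL and 42.6 and 59.0 in NP. In replicate 1 of eif3h only 2 of 30 signals in PL and 3 of 30 in NP lay below the median of their array, whereas 23 and 27 did so in eif3h replicate 2 and between 27 and 30 in the 4 WT arrays. The group supplied 0.690% of all summed signal in PL and 0.469% in NP of eif3h replicate 1, and between 0.00885% and 0.0247% on each of the other 6 arrays.

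**Figure D1:**
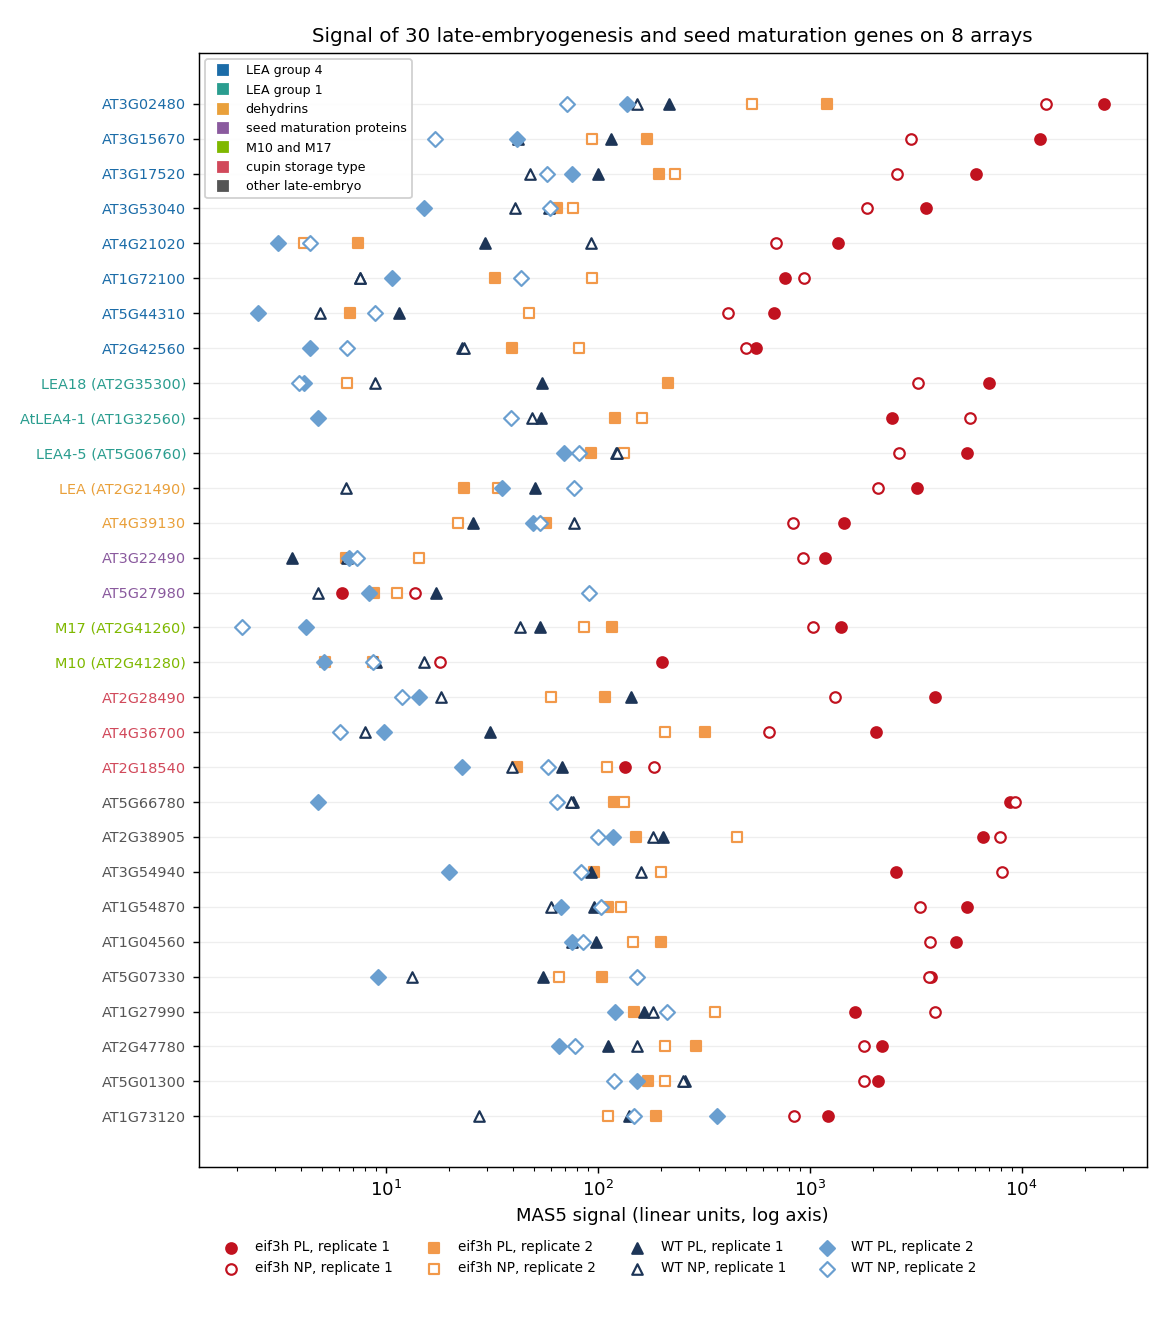
Signals of the 30 seed genes (rows, coloured by family) on each of the 8 arrays, on a log axis; filled symbols are polysomal and open symbols non-polysomal RNA. The red circles of eif3h replicate 1 lie to the right of all other symbols for 25 genes by more than 4-fold, while AT5G27980, M10, AT2G18540, AT4G36700 and AT1G73120 show a smaller gap or none.

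With a gap of over 4-fold required between the lower signal of eif3h replicate 1 and the highest of the other 6 arrays, a rule written after the values were seen, 25 of 30 genes qualified, beside 0.378% of all probe sets. The gap exceeded 8-fold for 20 of them. The largest gaps were 66.2-fold for AT5G66780 and 65.0-fold for AT3G22490. The 5 genes below the limit were AT1G73120 with 2.31-fold, AT4G36700 with 2.02-fold, AT2G18540 with 1.22-fold, M10 with 1.19-fold and AT5G27980, whose eif3h replicate 1 signals lay below another array.

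The family numbers used here are labels of this list. They do not follow the numbered LEA groups or gene symbols such as AtLEA4-1 and LEA4-5. The largest family was LEA group 4, proteins built of a short repeated motif that can fold into helices on drying, with 8 of its 10 listed genes measured. AT3G02480 had 24343 and 1201 in eif3h PL against 217 and 138 in WT PL, and 13095 and 532 in eif3h NP against 153 and 71.5 in WT NP. Its order was the same in both fractions, with eif3h replicate 1 first, eif3h replicate 2 next and both WT arrays lowest, so that the genotypes did not overlap. AT3G15670 had 12235 and 172 in eif3h PL against 115 and 41.8 in WT PL, and 3002 and 94.5 in eif3h NP against 42.1 and 17.1 in WT NP. AT3G17520 had 6068 and 195 in eif3h PL against 99.9 and 75.5 in WT PL, and 2596 and 232 in eif3h NP against 48.0 and 57.9 in WT NP. Both followed the same order, with eif3h replicate 2 above both WT arrays in each fraction.

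AT5G44310 had 677 and 6.8 in eif3h PL against 11.6 and 2.5 in WT PL, and 414 and 47.7 in eif3h NP against 4.9 and 8.9 in WT NP, with eif3h replicate 2 between the WT arrays in PL and above them in NP. The remaining 4 genes of the family, AT3G53040, AT4G21020, AT1G72100 and AT2G42560, spanned 557 to 3554 in PL and 503 to 1869.8 in NP of eif3h replicate 1. Their signals were 7.4 to 64.4 in PL and 4.1 to 94.1 in NP of eif3h replicate 2, against 3.1 to 59.1 over both WT PL arrays and 4.4 to 93.0 over both WT NP arrays. Pooled over the 4 genes, the range of eif3h replicate 2 thus overlapped that of WT. Gene by gene, both eif3h signals of AT3G53040, AT1G72100 and AT2G42560 lay above both WT signals in each fraction. For AT4G21020 eif3h replicate 2 lay between the WT signals in PL and below both in NP.

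LEA group 1 was measured in full, with 3 of 3 genes, which encode small hydrophilic proteins that are unstructured in solution. LEA18 had 7026 and 216 in eif3h PL against 54.4 and 4.1 in WT PL, and 3243 and 6.6 in eif3h NP against 8.9 and 3.9 in WT NP. AtLEA4-1 had 2456 and 121 in eif3h PL against 53.8 and 4.8 in WT PL, and 5702 and 162 in eif3h NP against 49.1 and 39.1 in WT NP. For AtLEA4-1 both eif3h replicates exceeded both WT arrays in each fraction, whereas LEA18 did so in PL and in NP had eif3h replicate 2 between the WT signals. LEA4-5 had 5522 and 92.9 in eif3h PL against 122 and 69.2 in WT PL, and 2628 and 134 in eif3h NP against 124 and 81.8 in WT NP. Replicate 2 of eif3h lay inside the WT range in PL and only just above it in NP, so that LEA4-5 stood out in replicate 1 of eif3h alone.

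Dehydrins, hydrophilic proteins with a lysine-rich segment that bind membranes and water, were represented by 2 of 4 genes. The dehydrin LEA (AT2G21490) had 3219 and 23.4 in eif3h PL against 50.5 and 35.4 in WT PL, and 2109 and 33.7 in eif3h NP against 6.5 and 77.1 in WT NP. AT4G39130 had 1458 and 57.2 in eif3h PL against 25.7 and 49.8 in WT PL, and 838 and 22.0 in eif3h NP against 77.5 and 53.6 in WT NP. In eif3h replicate 2 the dehydrin LEA lay below both WT signals in PL and between them in NP, and AT4G39130 lay above both in PL and below both in NP.

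Among the seed maturation proteins, 2 of 3 genes were measured, and they differed from each other. AT3G22490 had 1184 and 6.5 in eif3h PL against 3.6 and 6.7 in WT PL, and 929 and 14.3 in eif3h NP against 6.6 and 7.3 in WT NP. It was low on 6 arrays and high on both arrays of eif3h replicate 1. AT5G27980 had 6.2 and 8.8 in eif3h PL against 17.3 and 8.3 in WT PL, and 13.8 and 11.3 in eif3h NP against 4.8 and 90.8 in WT NP, which places eif3h replicate 1 among the other arrays and the highest value in WT. It was the only gene of the 30 with a lower PL signal in eif3h than in WT in replicate 1. M10 and M17, LEA-type genes separated on the chromosome only by an annotated pseudogene, were both measured. M17 had 1406 and 117 in eif3h PL against 53.7 and 4.2 in WT PL, and 1038 and 86.4 in eif3h NP against 43.0 and 2.1 in WT NP. M10 had 202 and 5.2 in eif3h PL against 9.0 and 5.1 in WT PL, and 18.0 and 8.7 in eif3h NP against 15.1 and 8.7 in WT NP. M17 was above WT in both eif3h replicates and both fractions, whereas M10 was high on a single array, eif3h PL of replicate 1.

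Of the cupin-type storage proteins, 3 of 6 genes were measured, all of them vicilin-like or related cupins. AT2G28490 had 3889 and 109 in eif3h PL against 144 and 14.4 in WT PL, and 1322 and 60.3 in eif3h NP against 18.3 and 11.9 in WT NP, and its eif3h replicate 2 signal lay between the WT signals in PL and above both in NP. AT4G36700 had 2048 and 319 in eif3h PL against 31.2 and 9.8 in WT PL, and 645 and 208 in eif3h NP against 8.0 and 6.1 in WT NP, and its genotypes did not overlap in either fraction, with replicate 1 of eif3h 6.41-fold above replicate 2 in PL and 3.10-fold in NP. AT2G18540 had 134 and 41.8 in eif3h PL against 68.2 and 23.0 in WT PL, and 185 and 110.1 in eif3h NP against 39.5 and 58.2 in WT NP, with all 8 signals below the array medians.

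The other 10 measured late-embryo genes (of 11 listed) encode proteins of several kinds. AT2G38905, of a family of small membrane proteins induced by cold and salt, had 6570.3 and 151 in eif3h PL against 204 and 118 in WT PL, and 7921 and 456 in eif3h NP against 183 and 100.1 in WT NP. AT5G66780 had 8776 and 119 in eif3h PL against 76.8 and 4.8 in WT PL, and 9266 and 133 in eif3h NP against 75.2 and 64.4 in WT NP, and was picked out for its gap after the values were seen. Both stood out in eif3h replicate 1, and in replicate 2 the PL signal of AT2G38905 lay inside the WT range while that of AT5G66780 lay above it.

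AT3G54940, a papain-type cysteine protease, had 2551 and 96.3 in eif3h PL against 93.4 and 19.9 in WT PL, and 8108 and 199 in eif3h NP against 161 and 83.2 in WT NP. AT1G27990 had 1641 and 148 in eif3h PL against 166 and 121 in WT PL, and 3916 and 357 in eif3h NP against 183 and 213 in WT NP. These were the genes with the strongest excess of NP over PL signal in eif3h replicate 1. AT2G47780, a relative of the rubber particle proteins found on lipid droplets, had 2189 and 292 in eif3h PL against 112 and 65.7 in WT PL, and 1809 and 208 in eif3h NP against 154 and 77.8 in WT NP and was added after the values were seen because of its call in a fit given further on. AT5G01300 had 2095 and 174 in eif3h PL against 259 and 153 in WT PL, and 1797 and 209 in eif3h NP against 254 and 119.7 in WT NP. The genotypes of AT2G47780 did not overlap in either fraction, while for AT5G01300 eif3h replicate 2 lay within the WT range in both.

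AT1G73120 had 1223 and 189 in eif3h PL against 139.9 and 366 in WT PL, and 845 and 112 in eif3h NP against 27.7 and 148 in WT NP, with WT above eif3h in both fractions of replicate 2. The remaining 3 genes, AT1G04560 of the AWPM-19 family of plasma membrane proteins, AT1G54870 of the short-chain dehydrogenases and AT5G07330, had 3731 to 5518 in PL and 3331 to 3695 in NP of eif3h replicate 1. They had 105 to 199 in PL and 65.7 to 147 in NP of eif3h replicate 2, against 9.2 to 98.2 in WT PL and 13.3 to 153 in WT NP. Their signals in eif3h replicate 2 exceeded both WT arrays in PL for each gene.

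The question posed by the genotype comparison was how far the signal in the mutant departed from WT within each fraction, and the answer differed between replicates. On the log2 scale the median difference of eif3h minus WT over the 30 genes was 5.59 in PL and 5.63 in NP in replicate 1, which is 48.1-fold and 49.5-fold. In replicate 2 it was 1.42 in PL and 0.94 in NP, which is 2.68-fold and 1.93-fold. Most WT signals in these ratios were low, and with log2(signal + 50), which damps ratios of low signals, the medians were 4.43 in PL and 4.11 in NP in replicate 1, and 0.59 and 0.61 in replicate 2. Over all probe sets the medians were -0.05 and -0.11 in PL and 0.17 and 0.18 in NP for replicates 1 and 2. These values come from the contrast by which the genes were chosen and are a description.

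In replicate 1, 28 of 30 genes were over 2-fold above WT in PL and 1 below it, where 11.2% of all probe sets were above and 13.0% below. In NP of replicate 1, 29 were above and 0 below, beside 18.3% and 12.4% of all probe sets. In replicate 2, without the gradient that stood apart, 18 were above and 0 below in PL, beside 9.25% and 14.5% of all probe sets. In NP of replicate 2, 14 were above and 4 below, beside 17.8% and 11.2%. The highest differences of replicate 1 were 8.36 for AT3G22490 in PL and 8.51 for LEA18 in NP, and the lowest were -1.48 for AT5G27980 in PL and 0.25 for M10 in NP. In replicate 2 the range ran from -0.95 for AT1G73120 to 5.72 for LEA18 in PL, and from -3.01 for AT5G27980 to 5.36 for M17 in NP. The order at these ends is not firm, since AT3G22490 was set against a WT signal of 3.6 in PL and LEA18 against 8.9 in NP, where the 20th percentiles of the arrays were 35.6 and 45.0. With log2(signal + 50) AT3G22490 had 4.53 in PL and LEA18 5.80 in NP, and the highest values were 6.51 for AT3G02480 in PL and 6.22 for AT5G66780 in NP.

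**Figure D2:**
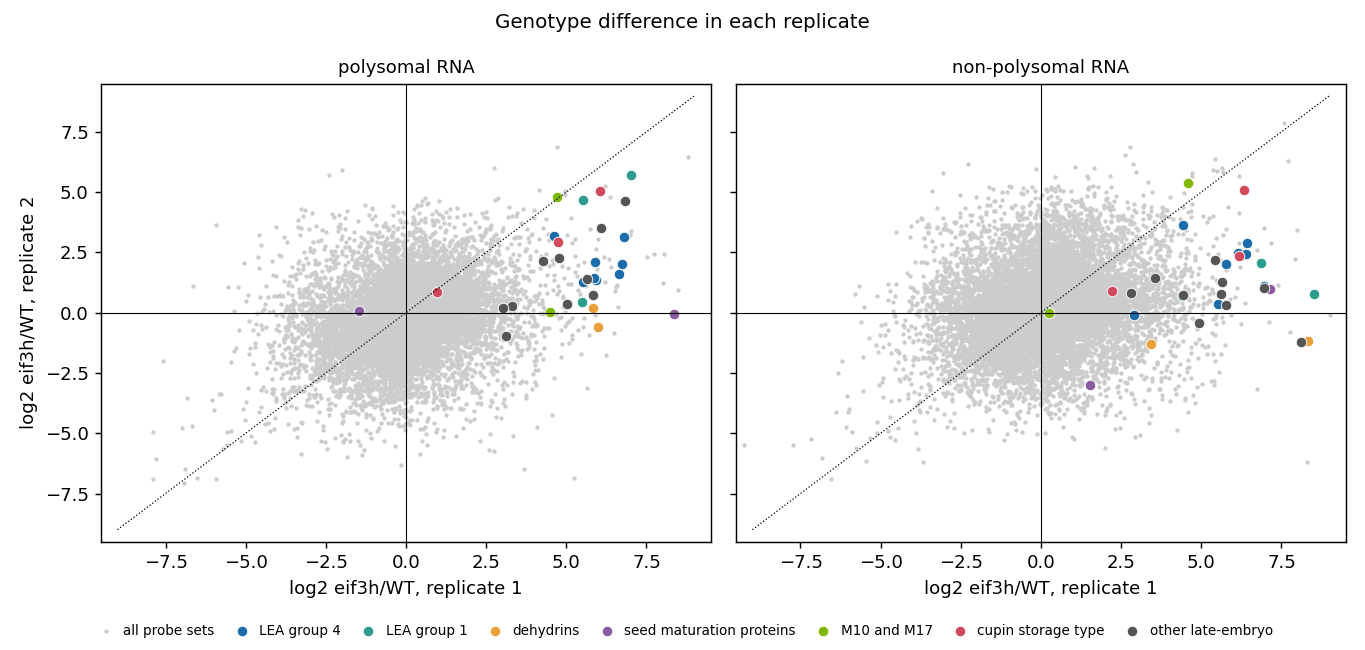
Difference of log2 signal, eif3h minus WT, in replicate 1 (x axis) against replicate 2 (y axis), for polysomal RNA on the left and non-polysomal RNA on the right; grey dots are all 22746 probe sets, coloured dots the 30 seed genes by family, and the dotted line marks equal differences. Most seed genes lie far to the right and well below the line, with medians of 5.59 and 5.63 on the x axes and 1.42 and 0.94 on the y axes.

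By family, LEA group 4 had medians of 5.92 in PL and 5.96 in NP in replicate 1, and of 1.83 and 2.21 in replicate 2, with 8 of 8 genes over 2-fold above WT in PL and 6 of 8 in NP in that replicate. The cupin genes had medians of 4.76 and 6.17 in replicate 1 and of 2.92 and 2.34 in replicate 2. LEA group 1 had 5.51 and 6.86 in replicate 1 and 4.66 and 0.76 in replicate 2. The dehydrins had 5.91 and 5.89 in replicate 1, and -0.20 and -1.24 in replicate 2, where 0 of 2 genes were over 2-fold above WT in either fraction. With 2 to 10 genes a family, these medians describe the families and were not compared by a test.

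Across the 30 genes, the differences in PL and NP correlated with Pearson's r of 0.70 in replicate 1 and 0.57 in replicate 2, and over all 22746 probe sets with 0.37 and 0.18. The differences of replicate 1 and replicate 2 correlated with 0.34 in PL and 0.21 in NP across the genes, and with 0.28 and 0.24 over all probe sets. The points share their arrays and genes are not independent replicates, so that no p is given.

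When both replicates were required to lie above both WT signals, 17 of 30 genes did so in PL and 21 in NP, beside 19.4% and 28.5% of all probe sets, and 14 did so in both fractions, beside 9.54%. Both eif3h signals lay below both WT signals for 0 of 30 genes in PL and 0 in NP, beside 25.9% and 16.1% of all probe sets. Without eif3h replicate 1, the same 14 genes had an eif3h replicate 2 signal above both WT signals in both fractions, where 20.4% of all probe sets did. AT3G02480, AT3G15670, AT3G17520, AtLEA4-1, M17, AT4G36700, AT2G47780, AT3G54940 and AT5G66780 were among them, and the others were AT3G53040, AT1G72100, AT2G42560, AT1G04560 and AT1G54870.

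Between the eif3h replicates, the signals in replicate 1 exceeded those in replicate 2 by a median of 28.7-fold in PL and 20.8-fold in NP, with 29 of 30 and 30 of 30 genes higher in replicate 1. Between the WT replicates the corresponding values were 1.92-fold with 26 of 30 genes and 1.28-fold with 17 of 30 genes. Over all probe sets the median of replicate 1 minus replicate 2 lay between -0.12 and -0.08 on the log2 scale in the 4 groups. The spread between eif3h replicates was therefore larger than the median difference between genotypes in replicate 2.

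A limma fit over the probe sets in the upper 50% of mean signal (11373), with the replicate as a block, tested only 11 of the 30 genes. The other 19 did not pass the filter on low values, and without the eif3h replicate 1 arrays only AT3G02480 would have passed, so that passing the filter rested on the signals of that gradient for the other 10. Past an adjusted p of 0.05 (limma, Benjamini-Hochberg), 4 of 11 were higher in eif3h PL and 0 lower, where 5.92% and 7.61% of all tested probe sets were called. In NP, 5 of 11 were higher and 0 lower, where 8.45% and 8.65% were called. Since the genes were chosen on this contrast, the calls are listed as a description.

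AT3G02480 was called in both fractions, with a log2 difference of 4.96 (SE 0.87) in PL and 4.66 in NP. No p-value is given for any of these calls, since the genes were chosen on this contrast. The other genes called also passed the filter only through eif3h replicate 1. AT2G47780 was called with 3.22 in PL and 2.49 in NP, AT3G54940 with 3.52 and 3.46, and AT3G17520 with 3.65 and 3.88. AT2G38905 was called in NP with 3.81 and had 2.69 in PL, which was not called. Without eif3h replicate 1, which leaves a lone eif3h gradient assumed to vary like WT, AT3G02480 kept its calls with 3.23 in PL and 2.78 in NP, and 4 of the 9 calls were lost. The other 3 calls, of AT2G47780 in PL and of AT3G17520 and AT2G38905 in NP, remained in that fit, but these genes were tested in it only because the gradient left out had let them through the filter. Without the replicate block 0 of these genes were called in either fraction. The calls rest on 2 gradients per genotype, and the number of arrays limits the precision. Apart from a replicate term shared by both genotypes, the fit took the PL and NP arrays of a gradient as independent. Over the seed genes the median of replicate 2 minus replicate 1 was -4.84 in PL and -4.38 in NP of eif3h. In WT it was -0.94 and -0.36, so that a shared term does not describe them.

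Polysome loading was read where the signal was above the array median in both fractions of a gradient. In eif3h replicate 1 this held for 27 of 30 genes, and for 25 when the 75th percentile was required. In eif3h replicate 2 it held for AT3G02480 alone, in WT replicate 1 for AT5G01300 alone and in WT replicate 2 for none, so that polysome loading of this group was measurable in a single gradient and its change between genotypes was not.

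In that gradient the translation state, log2 of PL over NP, had a median of 0.53 over the 27 genes, against -0.13 over all 10178 probe sets above the array medians in both fractions. Above the 75th percentiles in both fractions, nearer to the signals of these genes, the medians were 0.53 over 25 genes and 0.12 over 4490 probe sets. The translation state was positive for 21 of the 27 genes and negative for 6, where 44.0% of the 10178 probe sets were positive. Over all 30 genes, the low ones included, the median in eif3h was 0.49 in replicate 1 and -0.25 in replicate 2. A translation state over 1 in replicate 1 was found for 6 of the 27 genes of high signal, beside 9.51% of the probe sets, and one under -1 for 3, beside 12.2%. The median was 0.37 after quantile normalization and 1.0 after median centring, settings that put the median of all probe sets at 0.02 and 0.10 in place of -0.37. Under quantile normalization 20 of 27 stayed positive, with AT5G07330 turned negative, and under median centring 24 were positive, with AT1G72100, AT2G38905 and AT5G66780 turned.

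**Figure D3:**
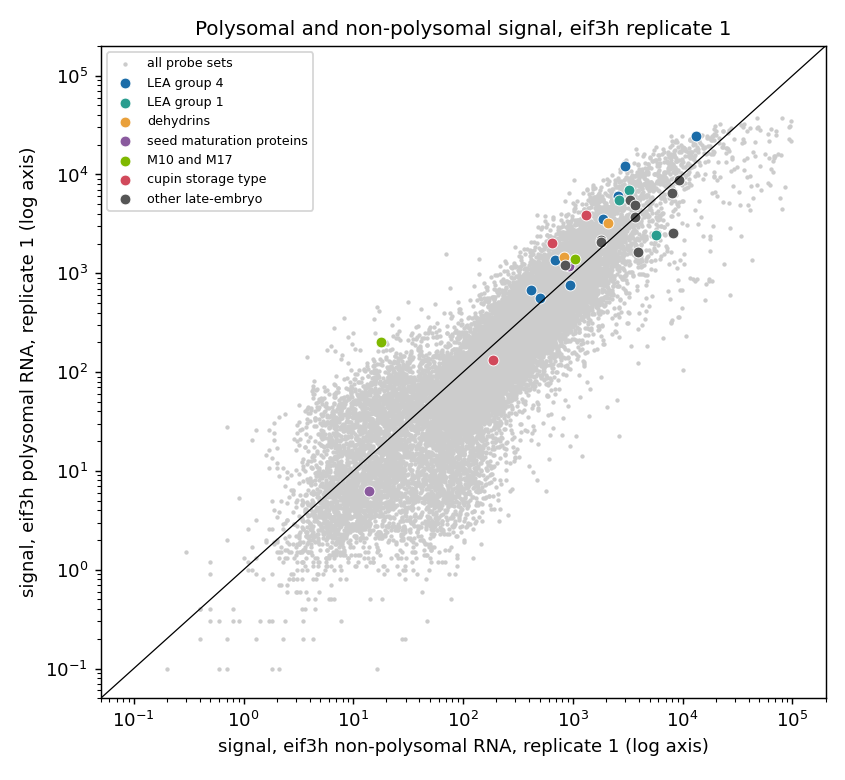
Polysomal signal (y axis) against non-polysomal signal (x axis) in eif3h replicate 1, both on log axes; grey dots are all probe sets, coloured dots the 30 seed genes by family, and the line marks equal signals. Most LEA group 4, LEA group 1, dehydrin and cupin genes lie above the line, and AtLEA4-1, AT1G27990 and AT3G54940 lie below it with translation states of -1.22, -1.26 and -1.67.

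The most polysomal mRNA of the group was AT3G15670 of LEA group 4, with a translation state of 2.03 in eif3h replicate 1, above 99.3% of the probe sets of high signal. The cupin genes AT4G36700 and AT2G28490 followed with 1.67 and 1.56, AT3G17520 had 1.22, LEA18 had 1.12 and LEA4-5 had 1.07. AT3G02480 had 0.89 in replicate 1 and 1.17 in replicate 2 of eif3h, and 0.50 and 0.95 in WT, where its NP signals were below the array medians. At the other end AT3G54940 had -1.67, above only 3.24% of the probe sets, AT1G27990 had -1.26 and AtLEA4-1 had -1.22.

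By family, the median translation state in eif3h replicate 1 among genes of high signal was 1.61 for the 2 cupin genes, 1.07 for the 3 LEA group 1 genes, 0.91 for the 8 LEA group 4 genes and 0.70 for the 2 dehydrins. It was 0.13 for the 10 other late-embryo genes, 6 of them positive and 4 negative. LEA group 1 was split, with LEA18 and LEA4-5 on the polysomal side and AtLEA4-1 on the non-polysomal side.

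The sign of the translation state was the same in all 4 gradients for 9 genes. It was positive for 7, which were AT3G02480, AT3G15670, LEA18, M17, AT2G28490, AT4G36700 and AT1G73120, beside 15.2% of all probe sets. It was negative for AT1G27990 and AT3G54940, beside 29.7%. In the 3 gradients other than eif3h replicate 1 most signals were below the array medians, and the ratio of such signals varied widely, as for LEA18 with 5.03 in eif3h replicate 2 and 0.07 in WT replicate 2.

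**Figure D4:**
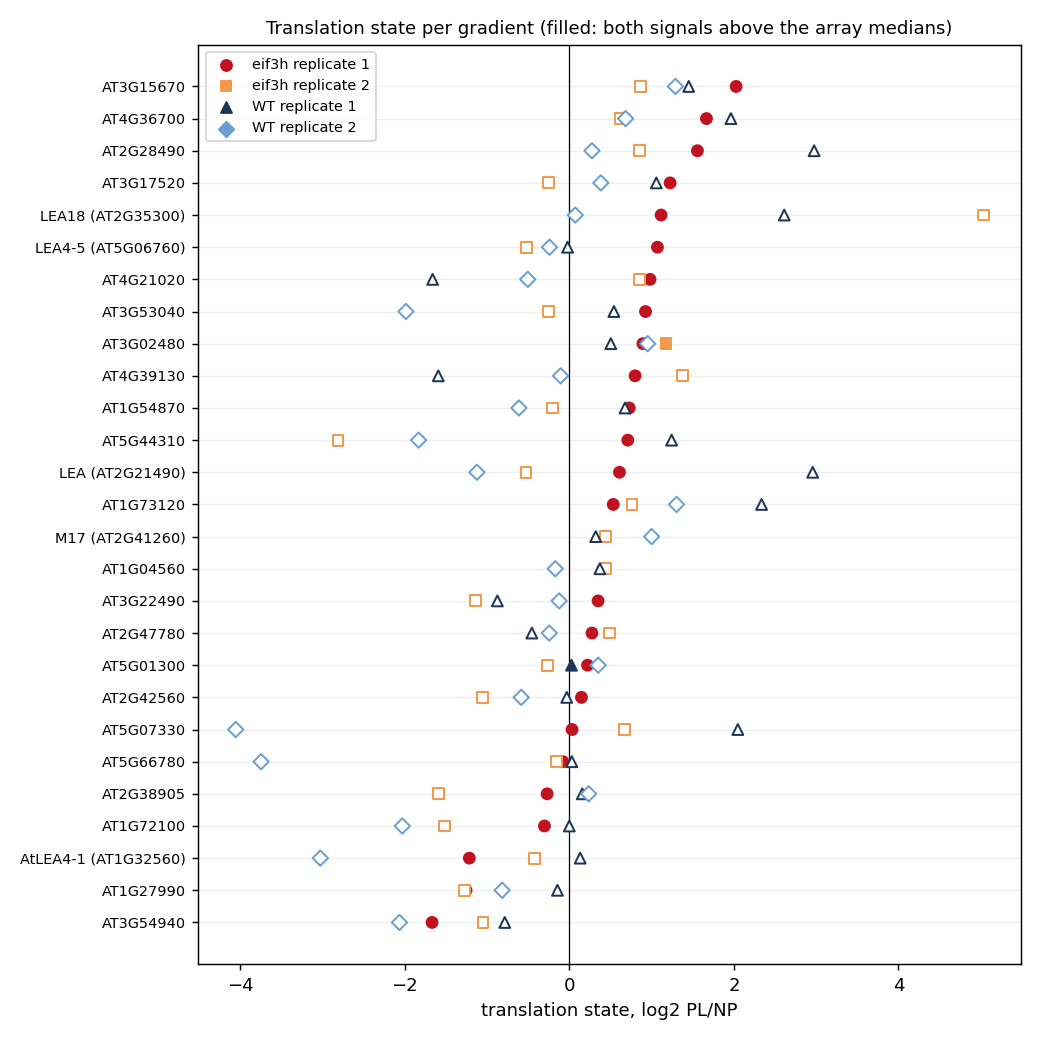
Translation state (log2 PL/NP) in each of the 4 gradients for the 27 genes with high signal in eif3h replicate 1, ordered by their value there; a filled symbol marks a gradient in which both signals were above the array medians. Beyond the red circles, which run from 2.03 to -1.67, only AT3G02480 in eif3h replicate 2 and AT5G01300 in WT replicate 1 are filled.

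In the limma fit, 0 of the 11 tested genes had a translation state in eif3h past the test (0 at an unadjusted p under 0.05), where 16.9% of tested probe sets were called polysomal and 22.2% non-polysomal. This 0 says little, since the gap between the eif3h replicates went into the residual spread of these genes. Their SE ran from 0.56 to 1.29 in this fit and from 0.21 to 0.36 in the second fit, given next. With the gradient as a block in place of the replicate, which compares PL and NP inside each preparation, 4 were called. AT3G02480 was called polysomal with 1.03 (SE 0.21, limma adjusted p = 0.00145). The other 3, AT1G27990, AT3G54940 and AT2G38905, fell on the non-polysomal side, but they passed the filter only through eif3h replicate 1 and were not above the array medians in both fractions of replicate 2, so that their p-values are not given. In this second fit 20.3% of tested probe sets were called polysomal and 26.8% non-polysomal.

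For the change of translation state, eif3h minus WT, 0 of 11 genes passed the test under the replicate block (0 at an unadjusted p under 0.05), where 0.0176% of probe sets were called up and 0.0352% down. The gap between the eif3h replicates went into the residual spread here too, so that this count says little. Under the gradient block 0 of 11 passed (2 at an unadjusted p under 0.05), where 1.02% and 0.615% were called. The fitted values ran from -1.17 for AT1G73120 to 0.73 for AT2G47780, and neither gene was above the array medians in both fractions of any WT gradient. These changes are given as values and are not read further.

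Genes of related families outside the list were also followed. Of 28 other LEA genes, 19 were measured, and 2 of them had a gap of over 4-fold in eif3h replicate 1, beside 0.378% of all probe sets. Those with the gap were AT2G23110 with 12.1-fold and AT4G36600 with 11.9-fold. AT1G54410, a dehydrin, had 11543 and 16891 in eif3h PL against 14057 and 19719 in WT PL, and 5138 and 4834 in eif3h NP against 4258 and 4432 in WT NP. AT2G23120 had 7949 and 7587 in eif3h PL against 3836 and 3988 in WT PL, and 7570.0 and 4317 in eif3h NP against 2383 and 2061 in WT NP. AT2G44060 had 8046 and 6737 in eif3h PL against 5627 and 3763 in WT PL, and 2109 and 1549.9 in eif3h NP against 2328 and 1692 in WT NP. These 3, taken by the rule of highest mean signal, were above the array medians on all 8 arrays and did not set eif3h replicate 1 apart. LTI30, COR15A, COR47 and DI21 had lower mean signals. Their PL signals in eif3h replicate 1 were 3.22-fold, 2.75-fold, 1.67-fold and 1.31-fold the highest other PL signal. In NP the values were 4.90-fold, 1.58-fold, 2.37-fold and 3.70-fold. Of the 19 genes, 7 were over 2-fold above WT and 2 below in PL of replicate 1, and 8 and 2 in NP. In replicate 2 the counts were 2 and 1 in PL, and 7 and 3 in NP. The cause was not tested. Over the 19 genes the median difference of eif3h minus WT was 0.64 in replicate 1 and 0.22 in replicate 2 in PL, and 0.66 and 0.22 in NP.

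Of 7 other seed storage genes 2 were measured. The vicilin-like PAP85 had 1417 and 218 in eif3h PL against 84.6 and 137 in WT PL, and 897 and 171 in eif3h NP against 46.5 and 109.9 in WT NP, with replicate 1 of eif3h set apart. AT1G03890, a cruciferin-like gene, had 52.0 and 84.6 in eif3h PL against 10.8 and 50.8 in WT PL, and 13.8 and 318 in eif3h NP against 20.9 and 69.9 in WT NP, with the highest signal in eif3h NP of replicate 2. Of 11 oil-body protein genes 4 were measured, all 4 with a gap of over 4-fold, beside 0.378% of all probe sets. Their summed signals were 9956 and 239 in eif3h PL against 333 and 201 in WT PL, and 6521 and 826 in eif3h NP against 274 and 338 in WT NP.

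Of 14 regulators of seed maturation 2 were measured. EEL, a bZIP factor of the embryo, had 129.7 and 79.3 in eif3h PL against 42.4 and 90.6 in WT PL, and 1245 and 323 in eif3h NP against 96.1 and 130.1 in WT NP. BZIP53, a bZIP factor that activates maturation genes, had 842 and 844 in eif3h PL against 1024 and 1395 in WT PL, and 4770.0 and 3596 in eif3h NP against 4112 and 3407 in WT NP. EEL was above WT in NP of both eif3h replicates and overlapped between genotypes in PL, whereas for BZIP53 both eif3h signals were below both WT signals in PL and the genotypes overlapped in NP. Of the 3 repressors of the embryonic programme and the 18 genes of the abscisic acid and drought response on the lists, 0 were measured.

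Marker lists of other tissues were measured in part. The endosperm marker AGL62, the only measured gene of 7, had 33.1 and 43.8 in eif3h PL against 51.7 and 37.4 in WT PL, and 45.2 and 57.8 in eif3h NP against 116 and 95.7 in WT NP. The 2 measured seed coat markers of 7 had summed signals of 20.5 and 14.9 in eif3h PL against 23.3 and 18.6 in WT PL, and 69.9 and 30.8 in eif3h NP against 24.3 and 97.0 in WT NP. The 3 measured root markers of 5 summed to 8871 and 7137 in eif3h PL against 6113 and 9480 in WT PL, and 2981 and 2096 in eif3h NP against 1861 and 2192 in WT NP, nearly all of it from PYK10. The shoot marker RCA, Rubisco activase, the only one measured of 7, had 23397 and 32735 in eif3h PL against 29361 and 29654 in WT PL, and 16758 and 14761 in eif3h NP against 36163 and 20809 in WT NP, which is high on all 8 arrays. The part of any other tissue in the signals of the seed genes was not tested beyond these values.

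Over all probe sets the gap of over 4-fold in eif3h replicate 1 was met by 86, of which 56 had 1 named gene. The 25 seed genes of the list were among these 56, with 7 genes of the other lists and 24 further named genes. Chosen after their values were seen, AT4G31830 with 37.7-fold, ATOEP16-2, a plastid envelope channel protein, with 19.8-fold and AGL67, a MADS-box factor, with 6.75-fold are examples of the last set.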

How the data were processed

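Polysomal and non-polysomal RNA of eif3h and WT seedlings was analysed on 8 ATH1 arrays. The deposited values are linear MAS5 signal intensities, which the authors scaled to a trimmed mean of 500 on each array, a step that removes whatever changes all mRNAs alike. Gene names come from the platform table through RefSeq TAIR10.1: 13513 probe sets had 1 gene, 503 had several, and 64 controls were left out. Log2 signals without an offset were fitted with limma 3.58.1 in R 4.3.3 (eBayes with trend, 4 groups, replicate number as a block, 11373 probe sets of the upper 50% by mean signal, two-sided, Benjamini-Hochberg 0.05). Each replicate number marks a preparation day, and replicate deviations of any pair of groups correlated with r from 0.33 to 0.68. The fit was also run on simulated data with independent noise, without a day effect or a gradient that stood apart. That run does not bear on the calls given here. Signals are written out for up to 3 genes per family by highest mean signal, for the highest and lowest differences, and for further genes said to be added. Members and lists were chosen with earlier results of these data known. Total RNA and promoter sequences were not analysed here.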

Additional observations from a re-analysis of the deposited data

How the results depend on the processing

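The medians of the genotype difference over the 30 genes kept their sign in every setting run, but not their size. As fitted they were 3.58 in PL and 3.52 in NP, with log2(signal + 50) 2.63 and 2.36, and leaving out each gradient in turn gave 1.23 to 5.67 in PL and 0.80 to 5.79 in NP. The counts of genes past the test, 4 in PL and 5 in NP, moved by more than 1.5 times under several settings. Without the replicate block they were 0 and 0, without a filter on signal 8 and 8 (of 30 tested), and with the upper 25% of probe sets 1 and 1 (of 1 tested). With log2(signal + 50) the count in PL was 2. Leaving out a gradient gave 2 to 11 in PL and 3 to 11 in NP: without eif3h replicate 1 the counts were 2 and 3, without eif3h replicate 2 or without WT replicate 2 they were 11 and 11, and without WT replicate 1 they were 4 and 3. Of the 9 calls of named genes, 9 were lost without the replicate block, 5 without a filter on signal, 4 without eif3h replicate 1, 3 without WT replicate 1, 3 with log2(signal + 50), 1 under quantile normalization and 1 without the variance trend. Where the cause is not the number of genes or arrays, it was not tested.

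The median translation state in eif3h was 0.30, with -0.25 without eif3h replicate 1, 0.49 without eif3h replicate 2, 0.53 under quantile normalization and 0.82 under median centring. Its count past the test was 0, became 4 with the gradient as a block, and ranged from 2 without eif3h replicate 1 to 5 without eif3h replicate 2, with 4 without either WT gradient. The median change of translation state was 0.09, became 0.45 under median centring, and ranged from -0.42 without WT replicate 2 to 0.67 without WT replicate 1, with -0.32 without eif3h replicate 1 and 0.40 without eif3h replicate 2. In all, 67 values of these summaries stayed within the replicate spread or 1.5 times the count, and 25 moved beyond it. For the genotype difference that spread was 2.95 in PL and 3.31 in NP, since it includes the gradient that stood apart. Even the shifts from leaving out a gradient stayed within it, so that staying within it says little for these medians. Detection calls were not used, so that low signals are read only against the array medians.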
